A study of Oryctolagus cuniculus with 16 samples.

Results

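The motile cilia genes of the rabbit vaginal wall were taken from a table of read counts by symbol: the axonemal dynein heavy and intermediate chains (DNAH and DNAI), the cilia and flagella associated proteins (CFAP), the radial spoke proteins (RSPH), the nexin-dynein regulatory complex (DRC), the tektins (TEKT), and FOXJ1, HYDIN, SPAG17, SPAG6, MCIDAS, RFX2 and RFX3. The rule found 61 of 13001 named genes, and 58 of the 10942 genes that passed a filter on low counts. They comprise 9 DNAH, 5 DNAI, 31 CFAP, 4 RSPH, 2 DRC and 3 TEKT genes and the 7 genes listed by name. The 3 genes below the filter were CFAP99, MCIDAS and TEKT5.

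The animals were juvenile New Zealand White rabbits, all female and 17 to 19 weeks old, and each of the 16 libraries was made from vaginal poly(A) RNA of 1 sample. The groups were a PLATE graft, which carries tissue particles (4 libraries, animals 1, 5, 9 and 13), an acellular graft without particles (3, animals 6, 8 and 10), sham surgery (3, animals 11, 12 and 14) and control vaginas without surgery (6, animals 2, 9, 16, 24, 25 and 29). Tissue of both graft groups was taken 10 mm from the graft. No distance is given for the sham and control vaginas, so sampling site and graft cannot be told apart in comparisons with them. Animal number 9 occurs in a PLATE and in a control label, and both libraries were treated as independent.

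Motile cilia beat by sliding of microtubule doublets. Outer and inner dynein arms drive the sliding, radial spokes and the central pair regulate it, the nexin-dynein regulatory complex links the doublets, and tektins and other inner proteins stiffen them. FOXJ1, a forkhead transcription factor, switches on the genes of the motile axoneme, MCIDAS (multicilin) acts upstream of it in multiciliated cells, and RFX factors bind the promoters of many ciliary genes. In the female reproductive tract multiciliated cells line the oviduct and occur in the endometrium and cervix.

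FOXJ1 was high in 3 libraries and near 0 in the other 13. Its level was 0.259, 0.131, 0.157 and 0.394 CPM (reads scaled to the effective library size) in PLATE 1, 5, 9 and 13. It was 0.0912, 0 and 2.81 CPM in acellular 6, 8 and 10, and 0, 0.287 and 0 CPM in sham 11, 12 and 14. In control 2, 9, 16, 24, 25 and 29 it was 0, 0.400, 5.70, 2.61, 0.311 and 0.102 CPM. The high libraries were 1 of the 3 acellular and 2 of the 6 control libraries, and no PLATE or sham library. In counts these were 57 reads in acellular 10, 129 in control 16 and 56 in control 24, against 10 reads or fewer in each other library. No comparison between libraries at this low level has much precision: 1 read was worth 0.0400 to 0.0900 CPM, and a count of 0 allows a level of up to 0.124 CPM (3 reads) in sham 14 and 0.270 CPM in control 2, for counting error only. In bulk tissue fewer ciliated cells and less RNA per cell cannot be told apart.

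**Figure D1:**
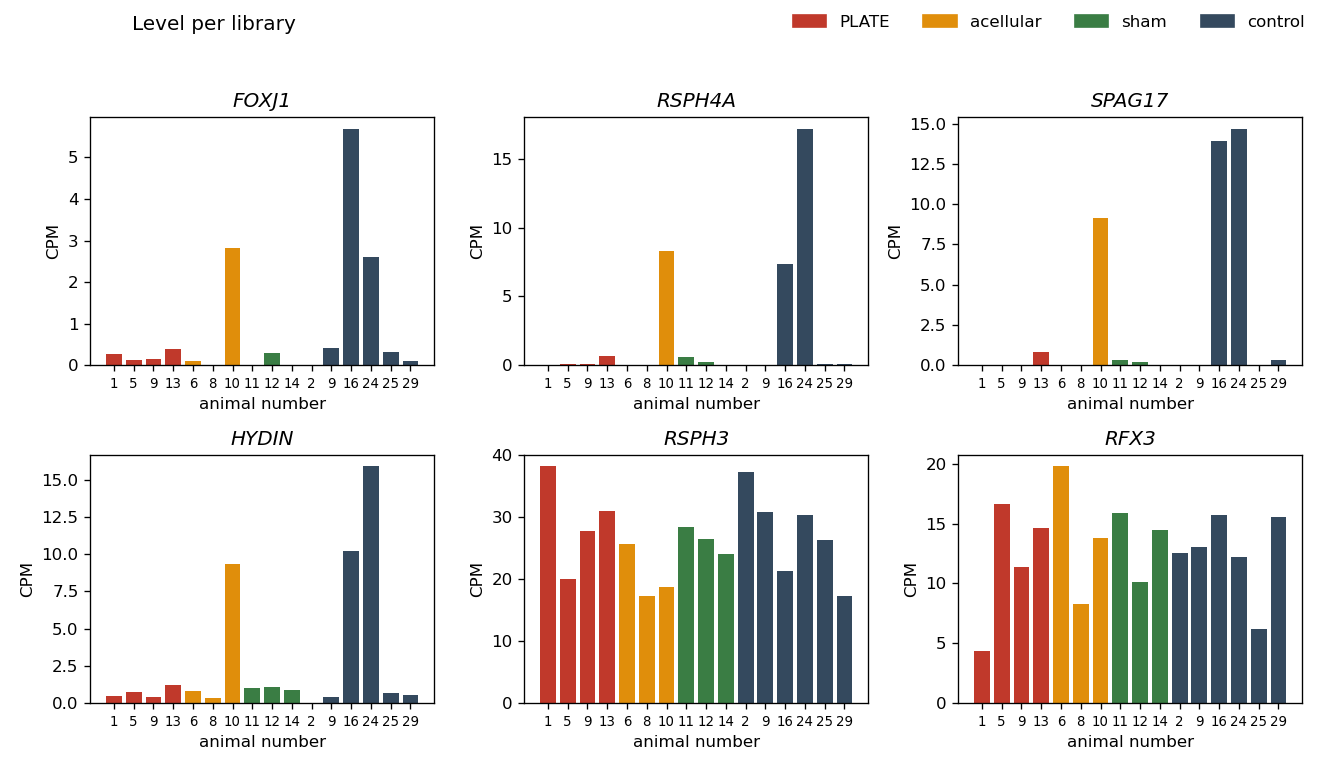
Level in CPM (vertical axes, linear, from 0) of FOXJ1, RSPH4A, SPAG17, HYDIN, RSPH3 and RFX3 in each library (bars, by animal number and coloured by group). FOXJ1, RSPH4A, SPAG17 and HYDIN stand up in acellular 10, control 16 and control 24 only, while RSPH3 and RFX3 are present in all 16 libraries.

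SPAG17, HYDIN and SPAG6, 3 genes of the central pair apparatus, had the same 3 highest libraries as FOXJ1. SPAG17, a central pair protein, was at 9.13 CPM in acellular 10, 13.9 CPM in control 16 and 14.7 CPM in control 24. In the other libraries it reached 0.836 CPM in PLATE 13 and at most 0.326 CPM elsewhere, and 9 libraries held no SPAG17 read. HYDIN, another central pair protein, was at 9.37, 10.2 and 15.9 CPM in acellular 10, control 16 and control 24, and at most 1.23 CPM in each other library. SPAG6, a further central pair protein, was at 6.76, 10.9 and 15.4 CPM in those libraries and at most 0.810 CPM, in control 2, outside them. For all 3 genes the lowest of the 3 libraries lay above the highest of the other 13, by 10.9-fold for SPAG17, 7.62-fold for HYDIN and 8.35-fold for SPAG6, against 6.51-fold for FOXJ1 itself. CFAP221, another central pair protein, had a ratio of 3.78, and SPAG16, also of the central pair, did not track FOXJ1 (slope 0.11 ± 0.091, edgeR adjusted p = 0.877).

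To ask which genes follow FOXJ1, the counts of each gene were fitted against the log2 CPM of FOXJ1 over the 16 libraries with edgeR's quasi-likelihood test, with Benjamini-Hochberg adjustment over the 10941 genes tested beside FOXJ1. A gene was said to track FOXJ1 where its slope, in log2 units of level per log2 unit of FOXJ1, was above 0 with an adjusted p under 0.05. Of the 57 motile cilia genes tested, 23 tracked FOXJ1 (40.4%), against 0.768% of all genes tested, and 0 had a called negative slope (0.0183% of all genes). A gene near 0 elsewhere could pass the filter on low counts only through the FOXJ1-high libraries. The filter therefore fixed these shares in part. Slopes were above 0 for 48 of the 57, against 49.6% of all genes. Among all genes, 84 tracked FOXJ1, so that 27.4% of the genes that did were motile cilia genes. The median slope was 0.30 over the 57 genes and close to 0 (-0.00045) over all genes. At an unadjusted p under 0.05, 37 of the 57 had a positive slope and 0 a negative one.

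This relation rests on the 3 high libraries. The libraries fall into 2 clusters by FOXJ1, so no pooled correlation coefficient is given. Within the other 13 libraries, where FOXJ1 had at most 10 reads, 0 of the 57 genes tracked it by edgeR, and 0% of all genes did. There 1 positive and 4 negative slopes had an unadjusted p under 0.05 by edgeR, for which the share of all genes was not taken. Leaving out control 24 alone gave 13 genes, leaving out control 16 gave 16 and leaving out acellular 10 gave 18, all of them among the 23. The share over all genes was not taken for these fits. With a mean for each group in the model, so that only differences within groups count, 9 of the 23 were called, against 0.228% of all genes: CFAP126, CFAP221, CFAP52, CFAP65, DNAH12, DNAH6, HYDIN, RSPH14 and RSPH4A. A second description, chosen after the data were seen, needs no fit. It rests on the same 3 libraries as the slopes and is no separate support for them. For 31 of the 57 genes (54.4%), all 23 that tracked among them, the 3 highest libraries were those of FOXJ1, against 1.07% of all genes tested.

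**Figure D2:**
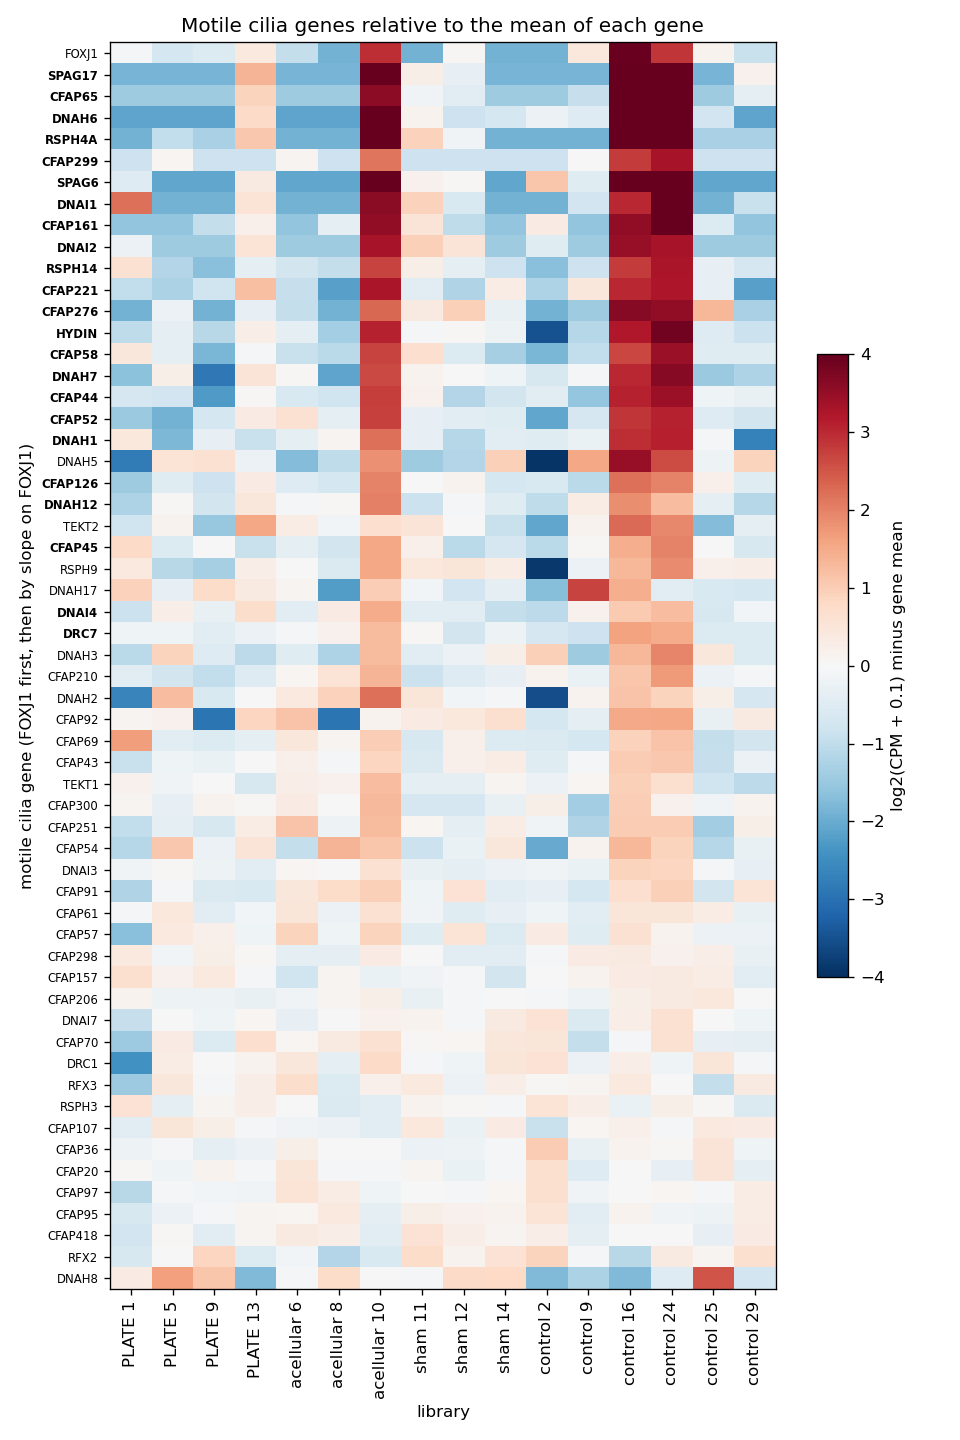
Level of the 58 tested motile cilia genes (rows, FOXJ1 first and the rest by their slope on FOXJ1) in the 16 libraries (columns), as log2(CPM + 0.1) minus the mean of the gene, with colours held at 4 in either direction. Names of the 23 genes that tracked FOXJ1 are in bold. The upper rows are high in acellular 10, control 16 and control 24, and the lower rows show no such block.

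Among the dynein heavy chains, the motors of the arms, 4 of 9 tracked FOXJ1: DNAH1, DNAH6, DNAH7 and DNAH12, all of the inner arms. DNAH6 was at 9.27 CPM in acellular 10, 15.0 CPM in control 16 and 15.7 CPM in control 24, and at most 0.640 CPM, in PLATE 13, in the other libraries. Its slope was 1.41 ± 0.21 (standard error; edgeR adjusted p = 0.00252). DNAH12 was at 5.87, 5.25 and 3.35 CPM in the same libraries and between 0.517 and 1.92 CPM in the others, with a slope of 0.48 ± 0.076 (edgeR adjusted p = 0.00334).

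DNAH5, the outer arm heavy chain of airway and other motile cilia, missed the threshold. It was at 15.1 CPM in acellular 10, 47.3 CPM in control 16 and 25.9 CPM in control 24, but also at 12.2 CPM in control 9, where FOXJ1 was low, and at 8.19 CPM in sham 14. Its slope was 0.62 ± 0.15 (edgeR adjusted p = 0.0609). DNAH2, an inner arm heavy chain, was found in every library, from 0.720 CPM in control 2 to 43.2 CPM in acellular 10, with 22.5 CPM in PLATE 5 and 17.9 CPM in acellular 8 (slope 0.27 ± 0.13, edgeR adjusted p = 0.852). DNAH17 and DNAH8 are outer arm heavy chains known from sperm. DNAH17 peaked at 15.2 CPM in control 9 and DNAH8 at 1.87 CPM in control 25, neither of them a FOXJ1-high library, and neither tracked FOXJ1 (edgeR adjusted p = 0.848 and 0.890). DNAH3, an inner arm chain, did not pass either, although its 3 highest libraries were those of FOXJ1.

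Of the dynein intermediate chains 3 of 5 tracked FOXJ1. DNAI2, of the outer arm, had 51, 66 and 55 reads in acellular 10, control 16 and control 24 and 9 or fewer in each other library (slope 1.02 ± 0.22, edgeR adjusted p = 0.0286). DNAI1, its outer arm partner, was at 4.39 CPM in acellular 10, 2.87 CPM in control 16 and 13.0 CPM in control 24. PLATE 1 held 1.62 CPM of DNAI1, with 25 reads, whereas its SPAG17 and RSPH4A stood at 0 reads, and its DNAI2 at 2 reads. The inner arm chain DNAI4 ran from 2.07 to 7.28 CPM in the other 13 libraries and was at 12.6, 9.14 and 10.5 CPM in the 3 high ones (slope 0.34 ± 0.069, edgeR adjusted p = 0.0227). DNAI3, also of an inner arm, lay at 8.44, 10.1 and 9.91 CPM in the 3 high libraries against at most 5.79 CPM in the others and missed the threshold (slope 0.18 ± 0.044, edgeR adjusted p = 0.0688). DNAI7 ran from 5.95 CPM in PLATE 1 to 17.5 CPM in control 24, with 17.2 CPM in control 2, and had a slope of 0.030 ± 0.053 (edgeR adjusted p = 0.927).

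Of the 4 radial spoke genes, RSPH4A, a protein of the spoke head, was at 8.34 CPM in acellular 10, 7.33 CPM in control 16 and 17.2 CPM in control 24. Outside them it was at most 0.689 CPM and it was at 0 in 6 libraries (slope 1.40 ± 0.24, edgeR adjusted p = 0.00491). RSPH14 followed at lower levels, with 1.97, 2.12 and 2.98 CPM against at most 0.388 CPM (slope 0.94 ± 0.14, edgeR adjusted p = 0.00285). RSPH9, a second spoke head protein, was highest in the same 3 libraries, at 4.14, 3.53 and 5.30 CPM, but 12 of the other 13 libraries held 0.471 to 1.92 CPM, and its slope did not pass (0.39 ± 0.12, edgeR adjusted p = 0.405). RSPH3, a protein of the spoke stalk, was present in every library at 17.2 to 38.2 CPM and highest in PLATE 1 (slope -0.022 ± 0.053, edgeR adjusted p = 0.951).

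Of the CFAP genes 10 of 30 tested tracked FOXJ1. The 10 include inner proteins of the doublet microtubules (CFAP45, CFAP52, CFAP126, CFAP161 and CFAP276), the central pair protein CFAP221 and CFAP44, a part of the tether of an inner dynein arm, beside CFAP58, CFAP65 and CFAP299. CFAP65 had the smallest p of all 57 genes. It was at 3.06, 6.05 and 4.79 CPM in acellular 10, control 16 and control 24 and at most 0.394 CPM in the others, 8 libraries being at 0 (slope 1.53 ± 0.19, edgeR adjusted p = 0.000611). CFAP299 was low throughout, with 14, 26 and 36 reads in the 3 libraries and 2 or fewer in each other one (slope 1.34 ± 0.19, edgeR adjusted p = 0.00196).

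The CFAP genes named for their mean CPM were found in every library, those without FOXJ1 reads included. CFAP20, a protein of the inner junction of the doublets that is also known outside cilia, ran from 27.3 to 61.1 CPM, with its highest value in control 2, which held no FOXJ1 read. CFAP36 ran from 29.6 to 79.5 CPM and was also highest in control 2. These peaks in control 2 depend on its effective library size, the smallest of all. There 1 read was worth 0.0900 CPM, although control 2 held 18784689 counts on named genes, against 15348880 in acellular 8 at 0.0672 CPM. In reads control 2 was not highest. CFAP20 had 679 reads there against 1208 in acellular 6, and CFAP36 had 884 against 1086 in control 25. CFAP298, needed for dynein arm assembly, ran from 25.4 to 45.9 CPM, and CFAP206, of the radial spokes, from 24.7 to 40.4 CPM. CFAP418, known for its role in photoreceptors, had the CFAP family's lowest slope (-0.085 ± 0.048). None of these 5 passed, with edgeR adjusted p between 0.618 for CFAP298 and 0.928 for CFAP36. In the other direction, 3 CFAP genes that did not pass (CFAP43, CFAP61 and CFAP210) still had their 3 highest libraries in common with FOXJ1.

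DRC7 tracked FOXJ1 and DRC1 did not, although both belong to the nexin-dynein regulatory complex. DRC7 was at 10.7, 13.5 and 12.4 CPM in acellular 10, control 16 and control 24, and between 2.40 and 4.91 CPM in the others (slope 0.32 ± 0.065, edgeR adjusted p = 0.0187). DRC1 ran from 1.10 CPM in PLATE 1 to 10.8 CPM in acellular 10, with 7.55 and 5.54 CPM in control 16 and 24, inside the range of the other libraries (slope 0.020 ± 0.084, edgeR adjusted p = 0.978). Neither tektin passed. TEKT1 was at 5.08, 4.24 and 3.35 CPM in the 3 libraries and at most 2.60 CPM elsewhere, whereas TEKT2 was at 1.78 CPM in acellular 10, below the 3.39 CPM of PLATE 13. TEKT5 had 1 read in PLATE 9 and 1 in sham 12 and none elsewhere.

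Of the other regulators, RFX2 and RFX3 did not track FOXJ1, and MCIDAS, below the filter, was not tested. RFX3 lay between 4.33 and 19.8 CPM with a slope near 0 on FOXJ1 ( 0.0040 ± 0.070, edgeR adjusted p = 0.996). RFX2 lay between 2.15 and 9.27 CPM, with the second lowest value of all in control 16, where FOXJ1 was highest (slope -0.18 ± 0.086, edgeR adjusted p = 0.848). MCIDAS was barely detected, with 5 reads in control 16, 2 in sham 11, sham 12 and control 9, 1 in acellular 6 and sham 14 and 0 in the other 10 libraries, control 24 and acellular 10 included.

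**Figure D3:**
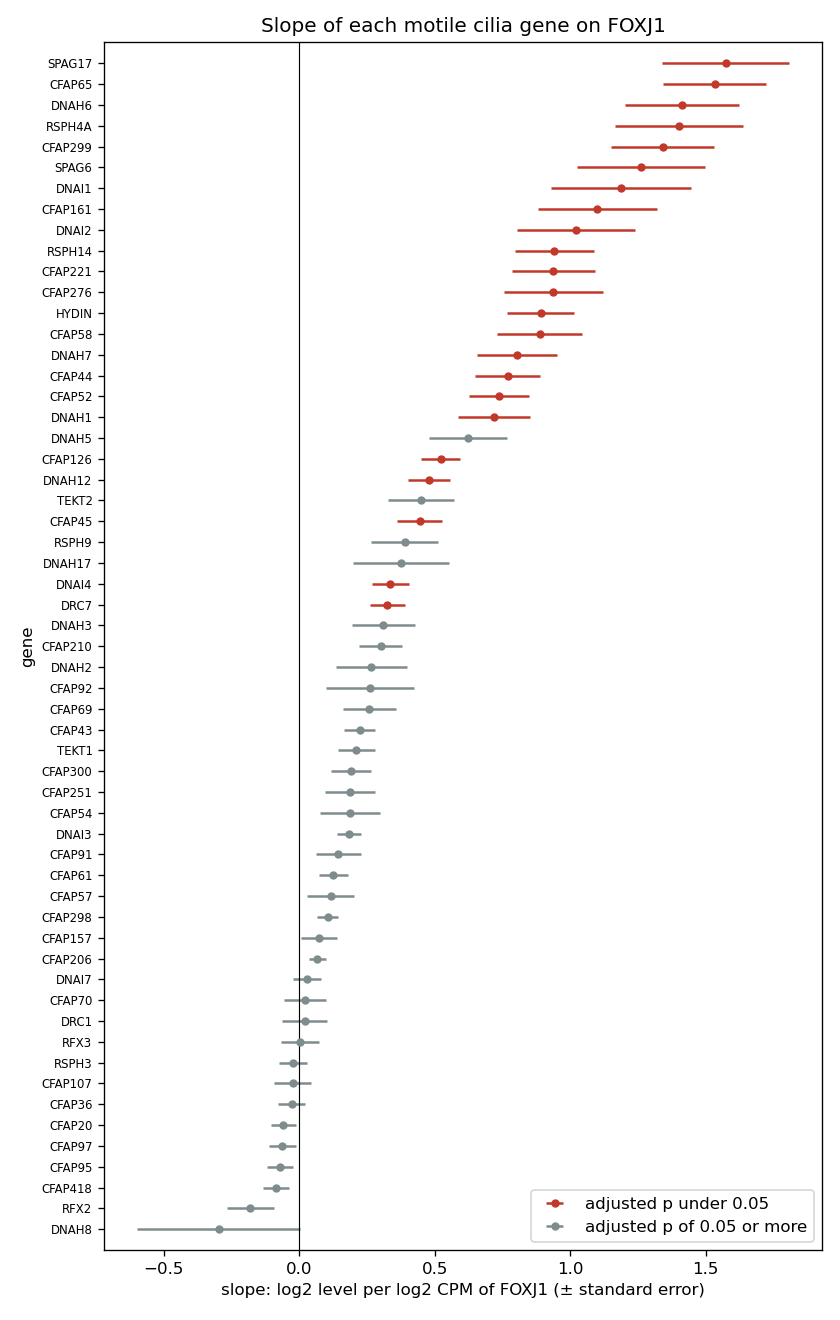
Slope of each tested motile cilia gene on FOXJ1 (horizontal axis, log2 level per log2 CPM of FOXJ1; points with standard errors from edgeR over 16 libraries). Red points mark the 23 genes with an adjusted p under 0.05, with slopes from 0.32 to 1.57, and grey points the 34 others, with slopes from -0.30 to 0.62.

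A gene near 0 in the 13 low libraries could pass the filter on low counts only through the 3 high ones, so the following levels are a description that the filter in part fixed. Each gene's median CPM over the 16 libraries lay between 0 and 3.86 for the 23 genes that tracked it and between 0.240 and 37.6 for the 34 that did not, and 16 of the 23 against 3 of the 34 were at 0 in at least 1 library. CPM is not scaled by transcript length, so these medians are not an order of molecule numbers between genes. Among the 23, the lowest of the 3 high libraries exceeded the highest of the other 13 by 1.26-fold (DNAI4) to 14.5-fold (DNAH6), with a median of 4.75. For the 8 genes with the same 3 highest libraries but no call this ratio was 1.00 to 1.84. At the threshold itself stood DNAI1, called at edgeR adjusted p = 0.0341, and DNAH5, not called at 0.0609. The call of DNAI1 was lost under 15 of the alternatives tried, that of DNAI2 under 9 and that of DNAI4 under 8, while DNAH5 gained one under 5.

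Within the 3 high libraries most of the 23 tracking genes were not highest where FOXJ1 was highest. FOXJ1 was highest in control 16, then acellular 10, then control 24, an order that 1 of the 23 tracking genes shared. Acellular 10 and control 24 held 57 and 56 FOXJ1 reads, so the order between them is not resolved. With these libraries in the other order, CFAP65, CFAP276, DNAI2 and DRC7 would share it. Of the 23 genes, 15 were highest in control 24, 5 in control 16 and 3 in acellular 10. DNAI1 differed most in this respect, with 13.0 CPM in control 24 against 2.87 CPM in control 16, while FOXJ1 was 2.61 and 5.70 CPM in the same libraries.

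A faint trace of the same transcripts appeared in other libraries. Over the 18 motile cilia genes with a median of 5 reads or fewer, the summed count was 2345 in control 24, 1870 in control 16 and 1237 in acellular 10. It was next highest in PLATE 13, with 122 reads, then in sham 11, in control 25, with 75, and in sham 12, with 71, and lowest in acellular 8, with 11. The 18 include FOXJ1 itself, the untested CFAP99, MCIDAS and TEKT5, and DNAH8, which did not track FOXJ1. In control 25, DNAH8 gave 36 of the 75 reads, so the place of that library does not rest on the tracking genes alone. In PLATE 13 and sham 11 at least 3 reads fell on 13 of the 18 genes each, and on 11 in sham 12, against 1 to 7 in the other low libraries. PLATE 13 had 17 reads of SPAG17 and 14 of RSPH4A and sham 11 had 7 and 13, while PLATE 9 had 0 and 1. FOXJ1 stood at 8 reads in PLATE 13, 0 in sham 11 and 6 in sham 12, and at 10 reads in control 9, where SPAG17 and RSPH4A were at 0.

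The 2 genes taken as measures of columnar epithelium, EPCAM and CDH1, were not called on FOXJ1. EPCAM, an epithelial adhesion molecule, was at 287 CPM in acellular 10, the highest of all libraries, but at 126 CPM in control 16 and 52.8 CPM in control 24, which ranked 9 and 14 of 16. Control 9, with 252 CPM of EPCAM, was low in FOXJ1, as were control 25 with 175 CPM, PLATE 5 with 172 CPM and PLATE 9 with 166 CPM. CDH1, the epithelial cadherin, gave the same picture in the FOXJ1-high libraries, with 238, 70.6 and 36.2 CPM in acellular 10, control 16 and control 24. In control 25 the genes differed, with CDH1 at 62.5 CPM and rank 12 of 16 against rank 3 for EPCAM. Neither tracked FOXJ1 (EPCAM slope 0.14 ± 0.16, edgeR adjusted p = 0.901; CDH1 slope 0.11 ± 0.17, edgeR adjusted p = 0.919). With EPCAM in the model 24 of the 57 genes tracked FOXJ1, the 23 among them, against 0.777% of all genes. Control 2 stands apart as a library with 1.71 CPM of EPCAM, and its part in the low ciliary levels there was not tested.

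**Figure D4:**
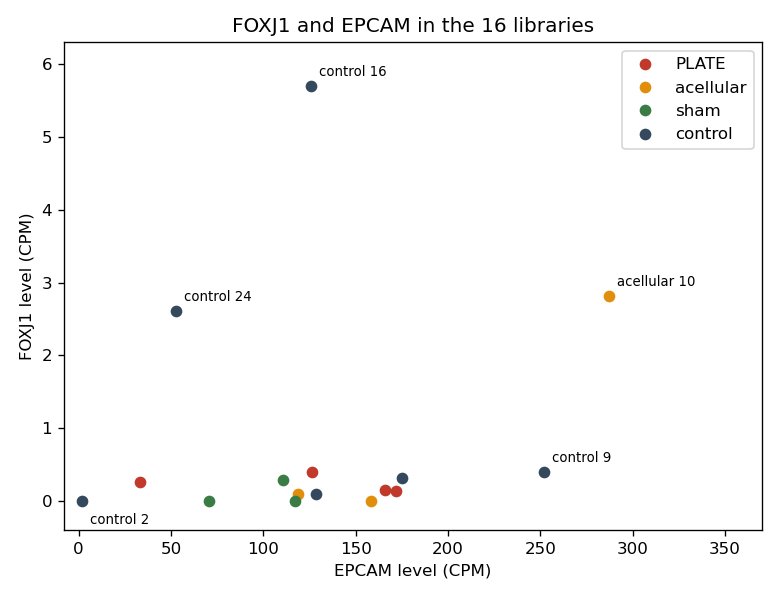
Level of FOXJ1 (vertical axis, CPM) against EPCAM (horizontal axis, CPM) in the 16 libraries, coloured by group. Control 16 and control 24 are high in FOXJ1 at 126 and 52.8 CPM of EPCAM, and control 9 is low in FOXJ1 at 252 CPM.

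Other lists of ciliary genes moved with FOXJ1 in part. Over all genes tested, 0.768% tracked it. A gene near 0 elsewhere could again pass the filter only through the FOXJ1-high libraries, so the filter in part fixed these counts too. Of the 31 tested genes of the arms, docking complexes and rulers, 7 tracked FOXJ1 and 0 had a called negative slope. Slopes were above 0 for 29 of the 31, with a median of 0.11. The 7 that tracked were TCTE1, a subunit of the nexin-dynein complex, ROPN1L, a radial spoke protein, AK7, an adenylate kinase, ENKUR, SPEF1, SPEF2 and LRRC23. AK7 was at 28.8, 38.8 and 45.1 CPM in acellular 10, control 16 and control 24, and between 14.2 and 20.3 CPM in the others. Of the 17 tested markers of ciliated cells, 8 tracked it (median slope 0.45): PIFO, SNTN, FAM183A, DYDC2, CAPSL, CDHR3, CDHR4 and ZBBX. Slopes were above 0 for 15 of the 17. Those of CETN2, at 124 to 256 CPM, and TMEM231 were below 0 (-0.051 and -0.028). PROM1, highest in control 9 at 154 CPM, did not track FOXJ1 (edgeR adjusted p = 0.873). CDHR4, a cadherin-related protein, was at 8.88, 11.8 and 16.5 CPM in the 3 libraries and at most 1.13 CPM, in PLATE 13, outside them. Of the 5 tested genes of the multiciliated cell programme, 1 did, DEUP1, a protein of the deuterosomes that build extra basal bodies, with 1.13, 2.47 and 1.21 CPM against at most 0.207 CPM in the others (slope 1.02 ± 0.17).

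In the other lists 0 genes tracked FOXJ1 by edgeR in either direction, which at a background of 0.768% is no finding about lists of this size. Of the 11 tested dynein assembly factors, which load the arms before they enter the cilium, 6 had a slope above 0 (median 0.0050), and DNAAF11 and PIH1D2 had the 3 highest libraries of FOXJ1. DNAAF11 was at 7.60, 10.8 and 8.84 CPM in acellular 10, control 16 and control 24, and at most 5.80 CPM, in control 9, elsewhere. Of the 32 genes of intraflagellar transport and the BBSome, which also build primary cilia, 7 had a slope above 0 (median -0.036) and 0 the same 3 highest libraries. The summed level of the transport list was 1129 to 1177 CPM in the 3 high libraries and 904 to 1430 CPM in the other 13. Slopes were above 0 for 22 of 24 genes of columnar epithelium (median 0.12), 7 of 8 of secretory and 5 of 8 of stratified squamous epithelium, 10 of 11 of leukocytes and 6 of 8 of endothelium, and for 0 of 10 of smooth muscle (median -0.061) and 0 of 12 of fibroblasts (median -0.064). Genes of 1 list share their libraries and are not independent. The summed levels of these 7 lists in the 3 high libraries lay inside the range of the other 13 but for 3 sums. The secretory list reached 4870 CPM in acellular 10 against at most 4822 CPM in the 13, the fibroblast list was at 12652 CPM in acellular 10 against at least 18365 CPM, and the squamous list at 84.8 CPM in control 24 against at least 93.8 CPM. Their part in the ciliary levels was not tested.

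The genes whose pattern was most like that of FOXJ1, ranked by Pearson correlation of log2 CPM over the 16 libraries among all genes tested, were ROPN1L, RIBC2, JHY, ANKRD66, ZBBX, CFAP65, MAP3K19 and CFAP299. Of these 8, CFAP65 and CFAP299 belong to the set. RIBC2, an inner protein of the doublet microtubules, was at 1.48, 4.06 and 3.02 CPM in acellular 10, control 16 and control 24, against at most 0.259 CPM (slope 1.52 ± 0.16, edgeR adjusted p = 0.000243). ROPN1L was at 7.30, 12.4 and 11.3 CPM against at most 1.18 CPM (slope 1.06 ± 0.12, edgeR adjusted p = 0.000243). All 8 had the 3 highest libraries of FOXJ1, on which this ranking rests.

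The comparisons between groups ask whether grafting or surgery altered the ciliary genes, and none of the 58 tested genes passed in any of the 6 pairs of groups or in the mean of the operated groups against control (edgeR, all 16 libraries in 1 fit, adjusted over 10942 genes, of which 0% were called in each). FOXJ1 averaged 0.235 ± 0.119 CPM in PLATE (SD, n = 4), 0.968 ± 1.60 CPM in acellular (n = 3), 0.0958 ± 0.166 CPM in sham (n = 3) and 1.52 ± 2.26 CPM in control (n = 6). The SD exceeded the mean in acellular, sham and control. The log2 fold change of FOXJ1 was -2.68 ± 1.49 for PLATE against control (edgeR adjusted p = 0.998), -0.65 ± 1.45 for acellular against control (0.980) and -3.95 ± 1.85 for sham against control (0.963). Without acellular 10, control 16 and control 24, PLATE against control was 0.11 for FOXJ1, and leaving out control 16 turned acellular against control to 0.48. Sham 12 was the only sham library with FOXJ1 reads, so that without it a fitted fold against sham depends on the prior count.

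In PLATE 51 of 58 genes had lower fitted levels than in control, and the median of the log2 fold changes was -0.62, against -0.014 over all genes. Of the 58, 9 had an unadjusted p under 0.05, all lower (15.5%, against 4.39% of all genes), and DESeq2 called 0 (0% of all genes). Among the 9, CFAP161, CFAP276, CFAP299, CFAP44, CFAP52, DNAH6 and SPAG6 tracked FOXJ1, with their highest control levels in control 16 and control 24. Genes that share their high libraries are not independent, here and in the other comparisons, so these counts are not of separate results. The smallest p was that of CFAP210, an inner protein of the doublets, named here after its values were seen. It was at 1.68, 1.35, 1.10 and 1.57 CPM in PLATE 1, 5, 9 and 13, against 2.52, 1.88, 5.08, 7.68, 1.92 and 2.24 CPM in control 2, 9, 16, 24, 25 and 29, without overlap of the groups (log2 fold change -1.32 ± 0.45, edgeR adjusted p = 0.998). It was the only one of the 58 genes without overlap in that comparison (1.72%, against 0.119% of all genes). SPAG17 was lower by a fitted -4.46 ± 2.27 (edgeR adjusted p = 0.998), with control 16 and control 24 at 13.9 and 14.7 CPM and the other control libraries at 0.305 CPM or less.

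Sham against control gave a like direction, 51 of 58 being lower at a median of -0.74 (-0.060 over all genes). Here 3 had an unadjusted p under 0.05 (5.17%, against 2.98%), DESeq2 called 0 (0% of all genes), and 1, CFAP210, did not overlap (1.72%, against 3.69%). In acellular against control 35 of 58 were lower at a median of -0.21 (-0.034 over all genes), and 0 had an unadjusted p under 0.05 (against 6% of all genes). Acellular 6 and 8 held 0.0912 and 0 CPM of FOXJ1, and without acellular 10 the log2 fold change of FOXJ1 was -4.74. The groups overlapped for all 58 (1.73% of all genes did not overlap). DESeq2 gave no adjusted p to any of the 58 in that comparison, and called 1.22% of the genes to which it gave one. These 3 comparisons share the control libraries, control 16 and control 24 among them. For all operated groups against control, 50 of 58 were lower at a median of -0.44 (-0.026 over all genes), and 13 had an unadjusted p under 0.05 (22.4%, against 3.88%), with 0 called by edgeR or by DESeq2 (0.00921% of all genes) and 0 without overlap (0.00914%).

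Set against the acellular group, PLATE was lower in 51 of 58 genes at a median of -0.73 (0.023 over all genes). Of the 58, 3 had an unadjusted p under 0.05 (5.17%, against 4.71%), DESeq2 called 0 (0.00921% of all genes), and the groups did not overlap for 5 (8.62%, against 4.97%): CFAP36, CFAP91, CFAP210, DRC7 and TEKT1. CFAP91, a protein at the base of the radial spokes, had the smallest p and was likewise named after its values were seen. It was at 1.68, 3.76, 2.67 and 2.61 CPM in PLATE 1, 5, 9 and 13, against 5.47, 6.72 and 7.79 CPM in acellular 6, 8 and 10 (log2 fold change -1.31 ± 0.45, edgeR adjusted p = 0.875). FOXJ1 itself had a log2 fold change of -2.03 ± 1.62 (edgeR adjusted p = 0.886), and 2.06 without acellular 10, so that its direction depended on that library.

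The acellular against the sham group ran the other way, 49 of 58 genes being higher at a median of 0.86 (0.019 over all genes), with 3 at an unadjusted p under 0.05 (5.17%, against 4.87%), 0 called by DESeq2 (0.00921% of all genes) and 7 without overlap (12.1%, against 18.3% of all genes). FOXJ1 was at 3.31 ± 1.92 (edgeR adjusted p = 0.902) and at -0.79 without acellular 10. RFX2 was the lowest of the 9 genes with a fold change below 0, with 4.56, 2.15 and 3.21 CPM in acellular 6, 8 and 10 against 8.34, 5.51 and 7.41 CPM in sham 11, 12 and 14 (log2 fold change -1.09 ± 0.50, edgeR adjusted p = 0.902). PLATE against sham showed little in either direction, 33 of 58 being lower at a median of -0.058 (0.025 over all genes; -0.079 with CFAP299, which had no read in sham, at the bound that 3 reads over the group give). In that comparison 0 of 58 had an unadjusted p under 0.05 (against 7.5%), DESeq2 called 0 (0.129% of all genes), 2 did not overlap (3.45%, against 14.9%), and FOXJ1 was at 1.27 ± 1.86 (edgeR adjusted p = 0.858).

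**Figure D5:**
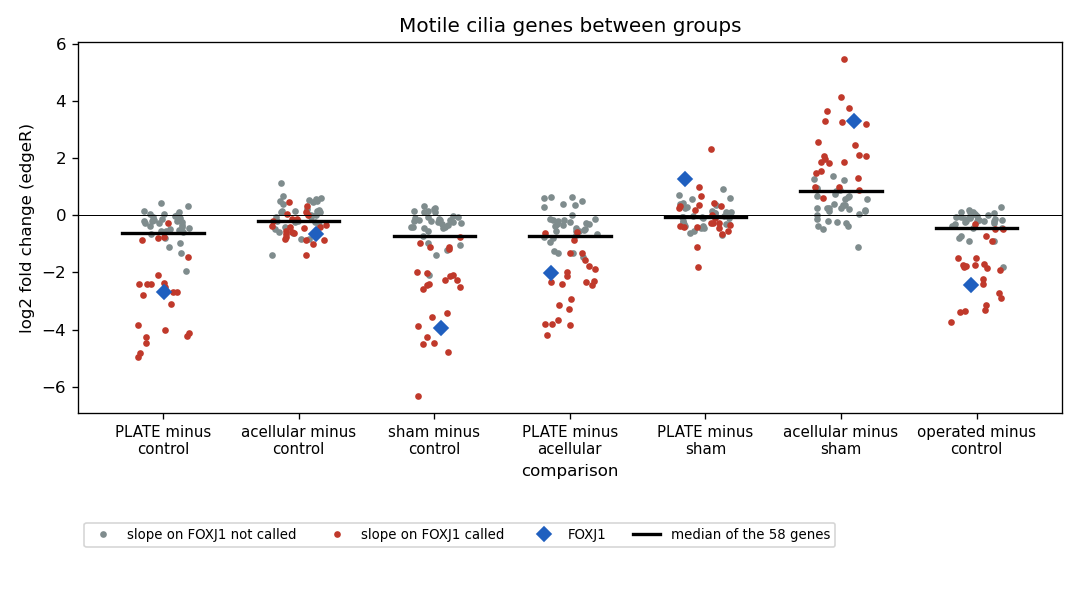
Fitted log2 fold change (vertical axis, edgeR) of the 58 tested motile cilia genes in 7 comparisons, with genes that tracked FOXJ1 in red, FOXJ1 as a blue diamond, the others in grey and the median as a bar. The red points spread farther than the grey ones, down to -4.95 for DNAH6 in PLATE minus control; the lowest point of sham minus control and the highest of acellular minus sham are CFAP299, whose fitted value depends on the prior count because sham held no read.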

How the data were processed

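Per the labels' protocols, stranded poly(A) libraries were sequenced, and the submitters' processing notes name FastQC, HISAT2 2.2.1 and featureCounts; genome build, annotation and strand setting are not given in the sources used here, so overlapping and antisense genes may share reads. The deposited file holds raw read counts per gene symbol, not normalized by the authors. Columns were matched to samples by their trailing index. A pooled line of genes without a symbol (22.9 to 28.5% of a library) was left out. The 16 libraries held 20992063 to 30695000 counts, 15348880 to 23236339 of them on named genes.

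Counts were filtered (filterByExpr), normalized by TMM (trimmed mean of M values) and tested with edgeR 4.0.16 in R 4.3.3, with a mean per group (12 residual degrees of freedom) or a slope on FOXJ1 (log2 CPM, prior count 2). Standard errors were derived from the F statistic. P-values were Benjamini-Hochberg adjusted over all genes tested, threshold 0.05. The labels number animals; beyond that, p-values measure the spread between these samples. The scripts were tested on simulated data. Alternatives were DESeq2 1.42.0 size factors and test, no filter, voom (limma 3.58.1), covariates and libraries left out. The set, the 12 gene lists and the tests were chosen with earlier results of these data known. Named were the 7 genes listed by symbol, in each family the up to 4 at the highest mean CPM and the tested ones with the highest and lowest correlation with FOXJ1, any called between groups, the 8 genes most correlated with FOXJ1, EPCAM and CDH1; other genes named were chosen after their values were seen. Planned correlation coefficients of single genes with FOXJ1 are not given, since the libraries fall into 2 clusters. No sequences were used.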

Additional observations from a re-analysis of the deposited data

Results flagged for a closer look

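Libraries far from the rest of their group were sought by Dixon's test at 95% in PLATE (4 libraries) and control (6) for the genes named by rule. Of 82 gene and group combinations 13 were marked, where chance marks about 1 in 20, and genes of 1 library are not independent. PLATE 13 stood above the other PLATE libraries for SPAG17 (0.836 CPM), DNAH6 (0.64 CPM), CFAP65 (0.394 CPM), RIBC2 (0.246 CPM) and ZBBX (0.148 CPM), all at 0 in the other 3, and for RSPH4A (0.689 CPM, next highest 0.0873 CPM). PLATE 1 was highest for CFAP206 (33.6 CPM, next 26.2 CPM). CFAP299 in PLATE 5 (0.0873 CPM, 2 reads) and TEKT5 in PLATE 9 (0.0523 CPM, 1 read) were also at 0 in the rest. Where the other 3 libraries are at 0 any single read is marked by construction, so for these 7 genes the mark says nothing beyond the reads themselves, which for the 5 in PLATE 13 were 17, 13, 8, 5 and 3.

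Among control libraries, DNAI1 stood at 13 CPM in control 24 (next 2.87 CPM in control 16) and MCIDAS at 0.221 CPM in control 16 (next 0.08 CPM in control 9). DNAH8 was at 1.87 CPM in control 25 against at most 0.14 CPM in the other controls. RFX3 was lowest in control 25, at 6.17 CPM, against 12.2 to 15.8 CPM in the others.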

How the results depend on the processing

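No paired analysis was possible because the groups compared share at most 1 animal number. Counts of cilia genes called between groups were 0 under each alternative that gave adjusted p-values; DESeq2 gave none for acellular against control. The 23 genes tracking FOXJ1 became 9 with group means, 2 without the 2 libraries farthest from the FOXJ1 median (control 16 and acellular 10), 0 without the 3 FOXJ1-high libraries and 0 at a Spearman rho of at least 0.7 (53 of all genes reach it), and 13 (without control 24) to 25 with 1 library left out. With voom it was 28, unfiltered 24. The share over all genes was not taken for these fits, nor for those without 1 library or without the 2 farthest ones. FOXJ1 reads of 10 or fewer limit ranks among the low libraries. With 1 library left out, the FOXJ1 log2 fold change ran from -4.74 to 0.48 (acellular against control), -0.79 to 7.29 (acellular against sham, the upper end without sham 12, where sham has no FOXJ1 read and the value depends on the prior count) and -2.60 to 2.06 (PLATE against acellular). Without the 3 FOXJ1-high libraries it was 0.11 (PLATE against control), 2.06 (PLATE against acellular) and -0.79 (acellular against sham). Of the genes named by rule, slopes not called changed sign without those 3 libraries for RFX3 (-0.16), DNAH2 (-0.11), DNAH8 (0.37), DNAI7 (-0.23), DNAI3 (-0.055), RSPH3 (0.095), DRC1 (-0.16) and TEKT1 (-0.11), and so did the called SPAG6 (-0.038) and DRC7 (-0.18); of the other called genes CFAP161 (-0.47), CFAP44 (-0.13) and DNAH1 (-0.025) did. Without the 2 farthest libraries RFX3 (-0.074), RSPH3 (0.070) and DRC1 (-0.11) did, without control 2, control 9 and PLATE 1 RFX3 (-0.00394), CFAP36 (0.028) and RSPH3 (0.00294), and with EPCAM RFX3 (-0.00569), CFAP36 (0.023) and RSPH3 (0.015). With 1 library left out, slopes ran from -0.035 to 0.020 (RFX3), -0.047 to 0.0078 (RSPH3), -0.053 to 0.026 (CFAP36), -0.0089 to 0.056 (DNAI7) and -0.034 to 0.042 (DRC1). Leaving out the 3 FOXJ1-high libraries and counting shared highest libraries were chosen after seeing the data. The cause was not tested, beyond the loss of the FOXJ1-high libraries in fits that drop them.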

Other observations

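Of the 7 genes of the multiciliated cell programme list in the table, 5 were highest in control 16 (GMNC, CCNO, DEUP1, CDC20B and MYB), TRRAP was highest in sham 11 and FOXN4 had no read. DEUP1 was at 2.47 CPM in control 16, 1.21 CPM in control 24 and 1.13 CPM in acellular 10. CDC20B, a gene of differentiating multiciliated cells, was at 12.9, 4.84 and 2.57 CPM in those libraries and at most 1.72 CPM in the other 13, and GMNC, a geminin-like regulator upstream of MCIDAS, at 1.77, 0.465 and 0.740 CPM, with 0.611 CPM in PLATE 5. Neither CDC20B nor GMNC tracked FOXJ1 (slopes 0.69 ± 0.19 and 0.79 ± 0.21, edgeR adjusted p = 0.223 and 0.178).

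Of the 84 genes that tracked FOXJ1, 61 lay outside the motile cilia set, and 16 of these were in 1 of the gene lists. A few are known from other settings. SDC4, a cell surface proteoglycan, PTX3, a secreted pattern recognition protein, and CD36, a scavenger receptor, had slopes of 0.19, 0.60 and 0.67 (edgeR adjusted p = 0.0443, 0.0195 and 0.0415). The 2 genes with a called negative slope were DUSP10, a phosphatase of MAP kinases (-0.43 ± 0.095, edgeR adjusted p = 0.0380), and RAB30, a small GTPase of the Golgi (-0.22 ± 0.044, edgeR adjusted p = 0.0218). All of these were named after their values were seen.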
